A study of Arabidopsis thaliana with 124 samples.

Results

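In the binding maps of 21 abscisic acid (ABA) related transcription factors of Arabidopsis thaliana, 5640 of 21939 bound regions (25.7%) were intragenic, meaning that the summit of every peak in the region lay inside a protein-coding gene. To build regions, peaks from the 42 lists, ABA and mock, were joined wherever they overlapped by at least 1 bp. A summit is the base of a peak at which the peak caller placed the highest signal. Only summits had to lie inside, so that an intragenic region can reach past the end of its gene. Of the other regions, 8983 had every summit outside protein-coding genes and 7316 had summits on both sides of a gene boundary.

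Binding was measured by ChIP-seq in whole Col-0 seedlings grown for 3 days in the dark. Each line carried 1 factor tagged with the fluorescent protein YPet by recombineering, so that the tag sat in a cloned copy of the gene with its native surroundings, and a rabbit polyclonal antibody against GFP precipitated the tagged factor. Seedlings received 10 µM ABA, or ethanol as mock, for 4 h. The series has 3 libraries per treatment for 19 factors and 2 per treatment for ANAC102 and ZAT6, which the authors pooled into 1 peak list per factor and treatment. As control, the same antibody was used on chromatin of untagged Col-0 seedlings, and both control libraries are labelled as ABA-treated. By family, GBF2, GBF3, ABF1, ABF3 and ABF4 are bZIP proteins, HAT22, HB5, HB6 and HB7 are homeodomain-leucine zipper proteins, and RD26, ANAC032 and ANAC102 are NAC proteins. MYB44, MYB3 and AT5G04760 belong to the MYB and MYB-related families, NFYC2 and NFYB2 to NF-Y, and FBH3, ZAT6, HSFA6A and DREB2A each to a family of its own. The lists held between 15 and 18096 peaks, and, with no read counts in them, the depth of the libraries is unknown.

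ABA is the hormone by which plants respond to drought and keep seeds dormant. ABF proteins switch on ABA-responsive genes through G-box-like elements, GBF proteins are bZIP relatives that bind the G-box, and NFYB2 and NFYC2 are subunits of the NF-Y complex, which recognises the CCAAT box. In plants most mapped factor binding lies in promoters, just upstream of the transcribed part of a gene. Binding within the gene can lie in untranslated ends, introns or coding exons, and the gene table used here held no strand and no exons, so that the 5′ and 3′ ends of a gene, and exons and introns, cannot be told apart in what follows.

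Intragenic regions were small and touched by few factors. Their median width was 679.5 bp, against 944 bp for regions with every summit outside genes and 1768 bp for mixed regions. A member was touched by a median of 2 factors under ABA and 1 under mock. Of the 5640 regions, 2376 (42.1%) were touched by 1 factor, and 808 (14.3%) by 10 or more factors under ABA, where the share over all regions was 35.1%. Both follow in part from the rule itself, since a region with more peaks has more summits that must all lie inside. Of regions with 1 peak 49.3% were intragenic, of regions with 6 to 10 peaks 23.5%, and of regions with over 30 peaks 5.20%. Nothing is therefore read from the low number of factors. At the boundary of the rule, 769 regions with all summits but 1 inside a gene had a median of 6 peaks, with 4 factors under ABA and 2 under mock, and the 4186 intragenic regions with 2 or more peaks had a median of 5 peaks, with 3 factors under ABA and 2 under mock.

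The 5 chromosomes held members at like rates. The share of regions that were intragenic was 26.6% at the highest, on chromosome 4, and 25.5% on chromosome 1. Within 50 kb of the gene of a tagged factor lay 80 members. A tagged line carries a cloned copy of its gene with native surroundings, and how far that copy reaches is not known here. The share of all regions in these windows was not counted.

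Summits of intragenic regions lay near the ends of genes for most factors, and least so for GBF3. Under ABA, 67.4 ± 6.8% of a factor's intragenic summits lay within the 20% of the gene next to either end (mean ± SD over 20 factors; FBH3 had fewer than 20 such summits), where an even spread would give 40%. The excess was 27.4 ± 6.8 percentage points and positive in 20 of 20 factors (two-sided sign-flip permutation test over factors, 100000 resamples, p = 1e-05, the smallest the resamples can give, adjusted p = 2.33e-05 over 7 tests). The share was 77.5% for HSFA6A, a heat shock factor, 76.7% for NFYB2 and 73.3% for RD26, a NAC protein of the drought response. At the low end stood GBF3 with 47.6%, HAT22 with 58.6%, MYB3 with 60.3% and GBF2 with 60.6%. The median distance of a summit from the nearer gene end was 126 bp for NFYB2 and 513 bp for GBF3, the lowest and the highest of the 21 factors, whose median was 185 bp.

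**Figure D1:**
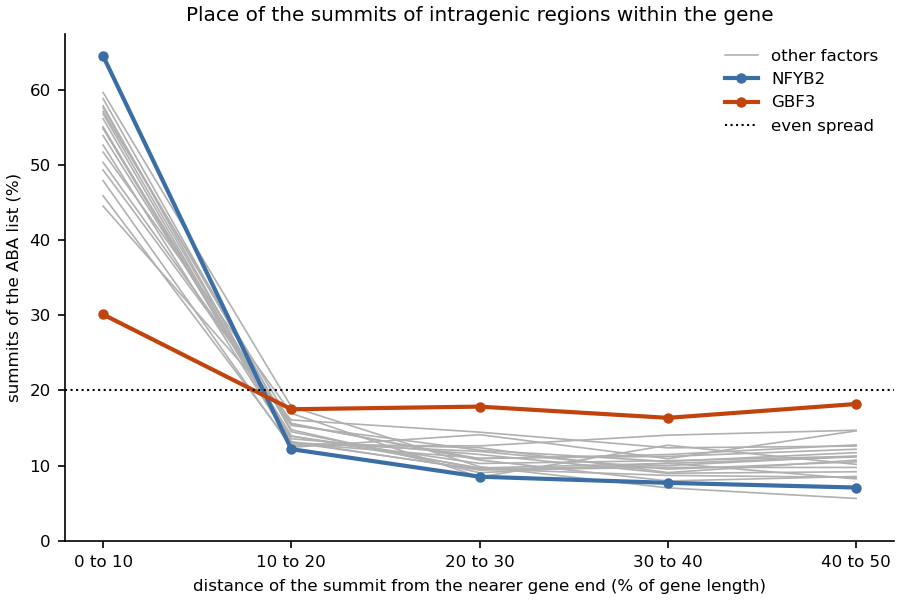
Share of each factor's intragenic summits under ABA (vertical axis, percent) by the distance from the nearer gene end in percent of gene length (horizontal axis), for GBF3, NFYB2 and the other factors with at least 20 summits, the dotted line marking the 20% of an even spread. In the bin next to the gene ends GBF3 had 30.1% of its summits, the lowest of the lines, and it stayed nearly level towards the middle of the gene, where each further bin held at least 16.4%.

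Farther inside the gene the excess was smaller. Among summits at least 100 bp inside the gene, 43.0 ± 5.5% lay in the end zones, where an even spread over the bases this leaves would give 35.0 ± 0.3%. The difference was 8.04 ± 5.60 percentage points and positive in 18 of 20 factors (sign-flip permutation p = 1e-05), with GBF3 at −2.07 and HAT22 at −0.72. Against 40%, as planned, the excess of these summits was 3.05 ± 5.53 points and positive in 14 of 20 factors (sign-flip permutation p = 0.0226). The 40% counts the outer 100 bp, where these summits cannot lie. In genes of 2000 bp or longer, with every summit kept, the excess over 40% was 25.4 ± 6.9 points and positive in 20 of 20 factors. The mixed regions, which the rule leaves out, had 79.8% of their inside summits in the same end zones under ABA, against 66.2% over all ABA summits of intragenic regions.

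The place of intragenic summits under ABA and mock did not pass the test of a difference. The share in the end zones was higher under ABA than under mock in 12 of 18 factors, by 1.35 ± 3.48 percentage points (sign-flip permutation p = 0.119, adjusted p = 0.119). The permutation test passed an unadjusted 0.05 without GBF3 (1.61 points, p = 0.0357), without ABF1, or without GBF3 and NFYB2 together (1.76 points, p = 0.0276). ZAT6, a zinc finger protein, had 65.6% in the end zones under ABA and 58.0% under mock. ABF1 ran the other way, with 68.8% under ABA and 75.1% under mock, and GBF3 had 47.6% under ABA and 53.2% under mock.

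GBF3 made up much of the intragenic set by itself. It alone touched 1339 members, which is 23.7% of all intragenic regions and 56.4% of those with 1 factor. NFYB2 alone touched 376, MYB44 118, HB5 93 and RD26 91, and GBF2, a close relative of GBF3, 1. Of all regions with 1 factor, 2376 were intragenic, 2451 had every summit outside genes and 65 were mixed. GBF3 alone touched 2193 of all 21939 regions, inside genes or not. Of these 61.1% were intragenic, against 34.4% for NFYB2 and 45.7% for MYB44. HSFA6A had a higher share, 70.6%, from 24 of only 34 regions. The list of GBF3 under ABA starts at a −log10 p of 17.98, and those of NFYB2 at 19.25 under ABA and 17.58 under mock, where the other lists start at about 16.

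Regions of GBF3 alone and of NFYB2 alone lay in opposite places. Taking each region by the median place of its summits, 31.1% of the GBF3-alone regions lay in the end zones, below the 40% of an even spread, at a median distance of 810 bp from the nearer end. Of the NFYB2-alone regions 85.9% lay there, at a median distance of 61 bp. The 661 members touched by 1 of the other 19 factors stood between them, with 70.3% and 154 bp. Members with 2 to 4, 5 to 9 and 10 to 21 factors had 69.1%, 72.1% and 66.3% in the end zones. Without the GBF3-alone regions the share over members was 70.8%, and with them 61.4%. These are descriptions of single pooled lists with no replicate error.

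**Figure D2:**
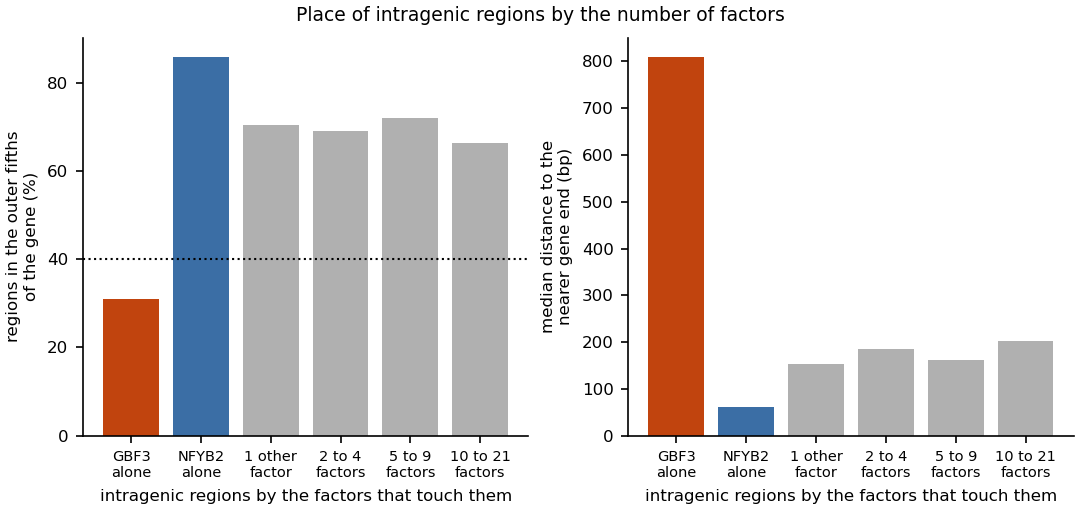
Intragenic regions by the factors that touch them (horizontal axis), with the percent of regions in the 20% of the gene next to either end on the left, the dotted line marking 40%, and the median distance to the nearer gene end in bp on the right. GBF3-alone regions stand at 31.1% and 810 bp, NFYB2-alone regions at 85.9% and 61 bp, and the 4 other classes between 66.3% and 72.1%.

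The peaks of GBF3-alone regions were weak and narrow next to the GBF3 peaks in members shared with other factors. Fold enrichment is the authors' ratio of ChIP signal to control for each peak. Under ABA the median fold was 2.40 in GBF3-alone regions and 3.21 in shared ones, the median peak width 353 bp and 673 bp, and the median percentile of −log10 p within the GBF3 list 24.4 and 55.2. The highest fold among the GBF3-alone peaks was 4.30. The place of GBF3 summits moved with this strength. In the top 25% of the GBF3 list by −log10 p, 60.8% of intragenic summits lay in the end zones and 0.835% were in GBF3-alone regions. In the bottom 25%, 43.2% lay in the end zones and 63.4% were in GBF3-alone regions. GBF2 ran the same way from a higher level, with 70.9% in its top 25% and 56.0% in its bottom 25%. NFYB2 ran the other way, with 74.3% in its top 25% and 79.7% in its bottom 25%, and so did HAT22, with 55.6% and 61.5%. No other list was split in this way.

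ABA and mock both gave GBF3-alone regions. Of the 1339, 595 had a GBF3 peak in both lists, 719 only in the ABA list and 25 only in the mock list. For NFYB2 alone the numbers were 157, 204 and 15. The mock lists repeated the order of places, with 33.3% of GBF3-alone summits and 83.1% of NFYB2-alone summits in the end zones.

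The share of a factor's regions that were intragenic differed little between the treatments. It averaged 13.2 ± 3.0% under ABA and 12.1 ± 3.1% under mock (SD over 21 factors). The difference was 1.09 ± 2.78 percentage points and positive in 17 of 21 factors (two-sided sign-flip permutation test, p = 0.0829, adjusted p = 0.0967). The permutation test passed an unadjusted 0.05 without DREB2A, whose mock list had 15 peaks (1.44 points, p = 0.00114), or with only the 18 factors whose ABA and mock lists each held 500 peaks or more (1.09 points, p = 0.00177). It turned negative when the longer list of a factor was trimmed to its strongest peaks to match the shorter, at −0.49 points and positive in 2 of 21 factors (permutation p = 0.48), and when each peak was placed by its own summit with no merging, at −2.77 points (permutation p = 0.00463). With merging kept and at least 50% of the summits inside, it was −0.79 points (permutation p = 0.469). The direction of this difference thus changed with the length of the lists and with the summit rule.

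**Figure D3:**
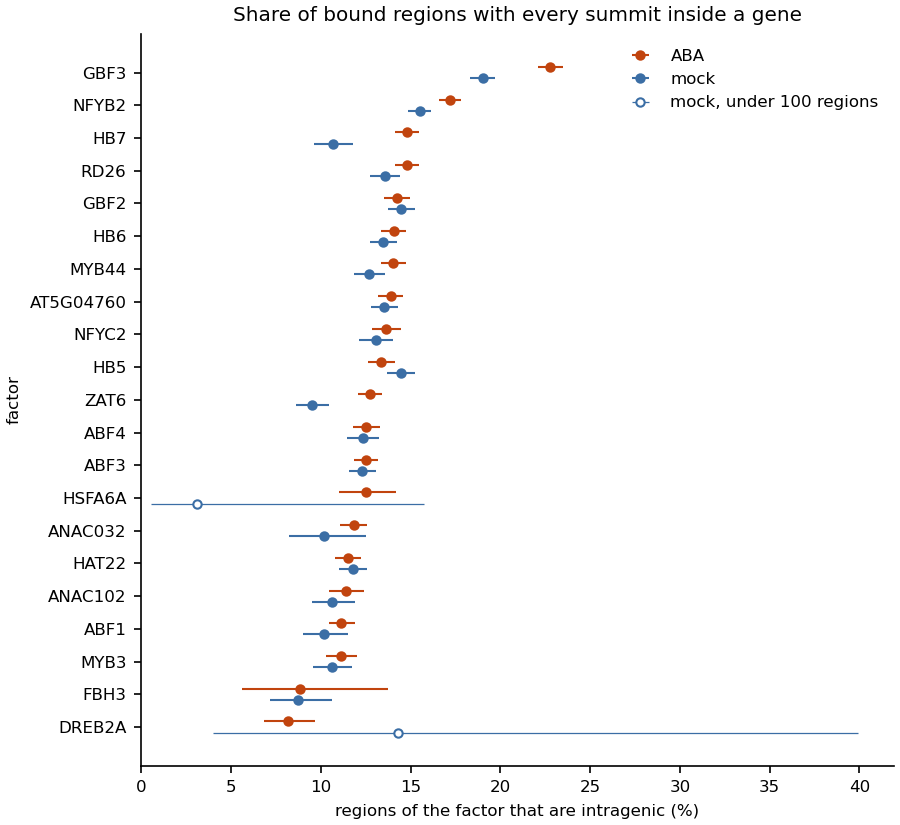
Percent of the regions touched by each factor that are intragenic (horizontal axis), by factor (vertical axis), under ABA and mock, with 95% Wilson intervals that cover counting error only and open points for lists of under 100 regions. GBF3 stands highest in both treatments, at 22.8% under ABA and 19.0% under mock, and NFYB2 next under ABA at 17.2%.

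GBF3 and NFYB2 led the factors in the share of intragenic regions as well as in number. Regions with few peaks were members more often under the rule. These 2 factors also had the most regions to themselves, 2193 and 1093, inside genes or not. The part of this in their shares was not tested. GBF3 touched 3075 members under ABA and 2308 under mock, 22.8% and 19.0% of its regions. NFYB2 touched 2468 and 1867, 17.2% and 15.5%. At the other end, FBH3, a bHLH protein, touched 17 members under ABA and 90 under mock, and DREB2A, an AP2/ERF factor of drought and heat, 116 and 2. The largest differences among the long lists were those of HB7, with 14.8% under ABA and 10.7% under mock, of GBF3, and of ZAT6, with 12.7% and 9.51%. HB5 had 13.4% under ABA and 14.5% under mock. Members touched under ABA outnumbered those under mock for 19 factors, and HB5 and FBH3 were the exceptions. The same 19 factors touched more regions of any kind under ABA, so nothing is read from this count. HB5 touched 7902 regions of any kind under ABA and 8344 under mock, and FBH3 192 and 1031.

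The strength of intragenic peaks within a list depended on the number of peaks in the regions they were set against. With the number of peaks in a region held alike, the median percentile of −log10 p was higher in intragenic regions than in regions with every summit outside genes in each of 5 classes, at 14.0 and 11.4 in regions of 1 peak, 28.1 and 26.1 in regions of 3 to 5, and 41.5 and 39.3 in regions of 11 to 20. The classes pool all lists, so that the factors in them were not held alike. GBF3-alone regions were 51.2% of intragenic and 28.5% of outside regions of 1 peak, and 52.2% and 30.8% of those of 2. In the classes of 3 or more peaks they were at most 0.123%. Against all other regions of the same list, whatever their number of peaks, the percentile was lower in intragenic regions. The difference of medians was −6.87 ± 5.53 percentile points under ABA, negative in 18 of 20 factors (sign-flip permutation p = 7e-05, adjusted p = 0.000122), with HSFA6A at 7.38 and DREB2A at 2.59. In the mock lists it was −4.19 ± 5.58 points, negative in 18 of 19 factors (permutation p = 0.00523, adjusted p = 0.00732), with ANAC032 at 13.3. Neither passed the permutation test against only the regions with every summit outside genes, at −1.69 ± 4.61 points under ABA (p = 0.117) and −1.23 ± 4.14 under mock (p = 0.23). Over the 18 factors with 500 peaks or more in each list, 14.7 ± 3.8% of the ABA peaks in the bottom 25% by −log10 p were in intragenic regions, and 9.20 ± 1.17% of those in the top 25%. The ABA lists of the other 3 factors ran the other way, with 9.68% and 13.8% for HSFA6A, 7.35% and 8.97% for DREB2A, and 6.25% and 10.2% for FBH3. GBF3 was the highest of the 18 at both ends, with 26.2% in its bottom 25% and 11.7% in its top 25%.

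Peaks in intragenic regions were narrower than a factor's other peaks. The median width of a factor's ABA peaks was 739 ± 103 bp in intragenic regions and 1042 ± 149 bp elsewhere (SD over 20 factors), a log2 ratio of −0.50 ± 0.11 that was negative in 20 of 20 factors (sign-flip permutation p = 1e-05, adjusted p = 2.33e-05). GBF3 had the largest ratio, −0.84, with 497 bp in intragenic regions. Part of this can follow from the rule, since a wide peak can overlap more peaks, whose summits must then all lie inside. Placed by each peak's own summit with no merging, the log2 ratio was smaller, at −0.21 ± 0.10, and positive in 1 of 21 factors (permutation p = 2e-05). Against regions with every summit outside genes the log2 ratio was −0.31 ± 0.11, and against mixed regions −0.59 ± 0.13, each negative in 20 of 20 factors. With the number of peaks in a region held alike, the median width was 376 bp inside genes and 450 bp outside in regions of 1 peak, 433 and 517 bp in regions of 2 peaks, and 695 and 767 bp in regions of 11 to 20 peaks. These medians pool all lists. GBF3-alone regions, with narrow peaks, were 51.2% of intragenic and 28.5% of outside regions of 1 peak, and 52.2% and 30.8% of those of 2.

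The share of a factor's ABA regions with no mock peak of that factor was 47.1 ± 28.7% in intragenic regions and 41.4 ± 29.6% in its other regions. A mock peak brings a further summit that must lie inside the gene, so that the rule itself favours members without one, and mixed regions hold at least 2 peaks. Against regions with every summit outside genes the difference was 0.53 ± 3.97 points and positive in 10 of 20 factors (permutation p = 0.622), and placed by each peak's own summit it was −0.38 ± 3.20 points (permutation p = 0.587). Against all other regions it was 5.69 ± 4.86 percentage points and positive in 19 of 20 factors (sign-flip permutation p = 1e-05, adjusted p = 2.33e-05), with DREB2A at −0.80, and nothing is read from it. For GBF3 the shares were 28.2% of intragenic and 9.45% of other ABA regions, for ZAT6 69.9% and 56.9%, for NFYB2 26.8% and 15.9%, and for RD26 52.2% and 41.4%.

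**Figure D4:**
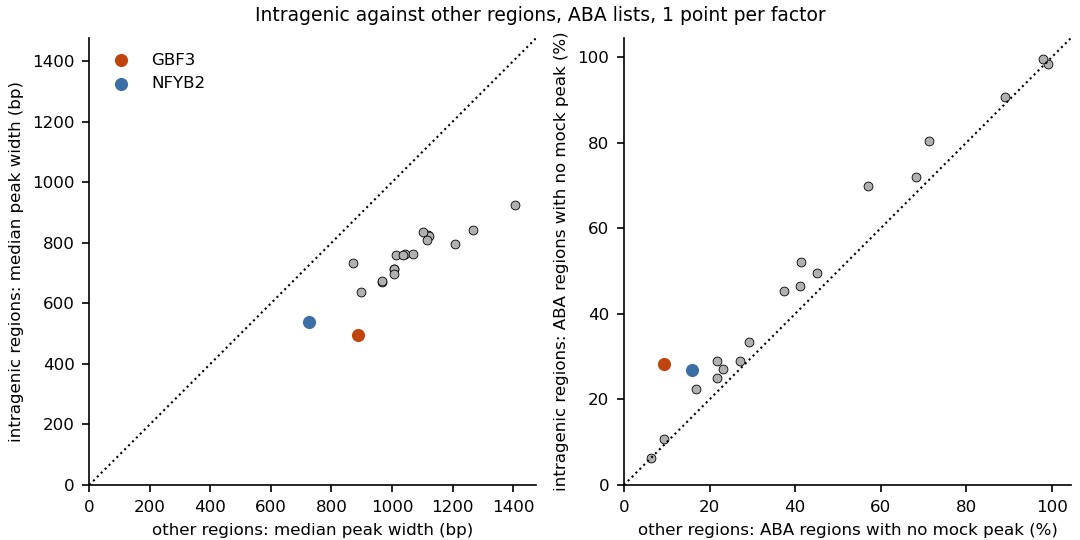
Each point is a factor, with its intragenic regions on the vertical and its other regions on the horizontal axis, for the median width of ABA peaks in bp on the left and the percent of ABA regions with no mock peak on the right; the dotted lines mark equal values. All 20 points lie below the line for width and 19 of 20 above it for regions with no mock peak, where GBF3 is farthest from it at 28.2% and 9.45%.

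Over the factors together, 1588 members (28.2%) were touched under ABA and by no mock list, where the share over all regions was 16.6%, and 177 (3.14%) under mock and by no ABA list, where it was 2.11%. More factors under ABA than under mock touched 3767 members (66.8%), where the share over all regions was 77.3%. Fewer touched 418 (7.41%), where it was 5.82%, and the number was equal in 1455. At the same number of peaks, regions touched under ABA only were less frequent among intragenic regions than among those wholly outside genes in 4 of 5 classes. Of regions with 1 peak, 89.1% of the intragenic ones and 83.6% of those with every summit outside were in ABA lists, and 81.3% and 82.4% once the GBF3-alone regions were left out. Of regions with 2 peaks, 13.8% inside and 21.1% outside had ABA peaks only, and 28.9% and 30.5% without the GBF3-alone regions. Of regions with 3 to 5 peaks, 10.6% inside and 14.6% outside had ABA peaks only.

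The intragenic regions lay in 5124 of 27444 protein-coding genes (18.7%). Of these genes 4640 held 1 region and 484 held more. Long genes held one more often: 5.92% of the shortest 20% of genes and 30.9% of the longest 20% did. Per kilobase of gene the numbers were level, at 0.0812 regions in the shortest 20% and 0.0752 in the longest 20%, with 0.0989 the highest between them. SPPL2, a signal peptide peptidase-like protease gene of 4385 bp, and AT5G14880 held 4 regions each, the most of any gene. In SPPL2 1 of the 4 regions was touched by 19 factors under ABA and 13 under mock, and each of the others by 1 factor in 1 list. SPPL5, a member of the same protease family, NIH, a nuclear helicase gene, and AT1G18160 held 3 regions each, with at most 4 factors under ABA in any of them. The SPPL5 region with 4 factors had summits in 2 genes.

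Of the 10 members touched by the most factors under ABA, 8 had their median summit in the end zones, and those in AT1G04000 and CCR2 lay farther in. Over all members with 10 to 21 factors the share there was 66.3%, and nothing is read from the count of 8. The region in AT4G03115 (chr4:1381260-1383624, TAIR10) was the one member touched by all 21 factors under ABA, with 17 under mock, and its summits lay in 2 genes. Its fold enrichment was 2.16 at the lowest, 2.96 at the median and 7.44 at the highest under ABA, and 2.23, 2.75 and 4.99 under mock. The region in AT5G65980 (PILS7, a PIN-LIKES gene of the auxin carrier family) was touched by 20 factors under ABA and 18 under mock (chr5:26394024-26395718), with a fold of 2.16, 3.76 and 10.95 under ABA and 2.08, 3.37 and 7.21 under mock. Its summits, from 38 peaks, lay within 264 bp of each other, at a median of 193 bp from the gene end. The strongest intragenic ABA peaks of ANAC102, HB5, HB6 and HB7 all lay there.

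WRKY7, a WRKY transcription factor gene (chr4:12570917-12572251), had a median fold of 3.38 over 20 factors under ABA and 3.33 over 17 under mock. PLDDELTA, a phospholipase D gene (chr4:16958854-16961394), had 3.27 over 20 factors under ABA and 2.94 over 16 under mock. CCR2, a cinnamoyl-CoA reductase gene (chr1:30371016-30373216), had 3.05 over 20 under ABA and 2.55 over 15 under mock. The other regions among the 10 with the most factors lay in AT4G00695, AT1G04000, AT1G27350, AT1G56700 and AT5G40340, each with 20 factors under ABA and 16 to 18 under mock. NFYB2 had the highest fold of all factors under ABA in each of the 10, and its median fold was also the highest of the 21 ABA lists over all members (4.01) and over other regions (4.63). In 9 of them a single factor was missing under ABA, and it was DREB2A, FBH3 or HSFA6A, whose lists were among the shortest.

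Some members were touched by many factors under ABA and few under mock. AIR3, a subtilisin-like protease gene induced by auxin in roots (chr2:1404550-1406120), was touched by 14 factors under ABA and by GBF3 alone under mock. Its fold was 1.84, 2.35 and 3.56 at the lowest, median and highest under ABA and 1.98 in the mock list of GBF3. These summits were 2126 to 2653 bp from the nearer end of a gene of 6560 bp, close to its middle. SUS1, a sucrose synthase gene (chr5:7052992-7056259), was touched by 14 factors under ABA and by GBF2 and GBF3 under mock, with folds of 1.80, 2.34 and 3.83 under ABA and of 2.22 and 3.36 under mock. AT2G16900 had 20 factors under ABA and 9 under mock, AT5G66070 18 and 7, and PP2-B11, an F-box gene of the phloem protein family, 19 and 9. With both lists of each factor cut to equal length the excess under ABA was 7 factors at AIR3, 6 at SUS1, 3 at AT2G16900, 8 at AT5G66070 and 7 at PP2-B11.

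Fewer members lost factors, and by smaller numbers. DWF1, a sterol reductase gene of brassinosteroid synthesis (chr3:6881708-6882897), was touched by NFYB2 alone under ABA, with a fold of 3.16. Under mock it was touched by 8 factors, NFYB2 among them, with folds of 1.78, 2.06 and 3.19 at the lowest, median and highest. AT4G10150 had 3 factors under ABA and 8 under mock, and AT2G47935 2 and 7. SAC51, a bHLH gene of stem elongation, had 11 under ABA and 15 under mock, and AT2G42320 10 and 14. The peaks behind the first 3 of these were weak: among peaks with a −log10 p of 32 or more, the difference was 0 factors at DWF1, 0 at AT4G10150 and −1 at AT2G47935. None of these differences has a replicate error, and no test was made on single regions.

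**Figure D5:**
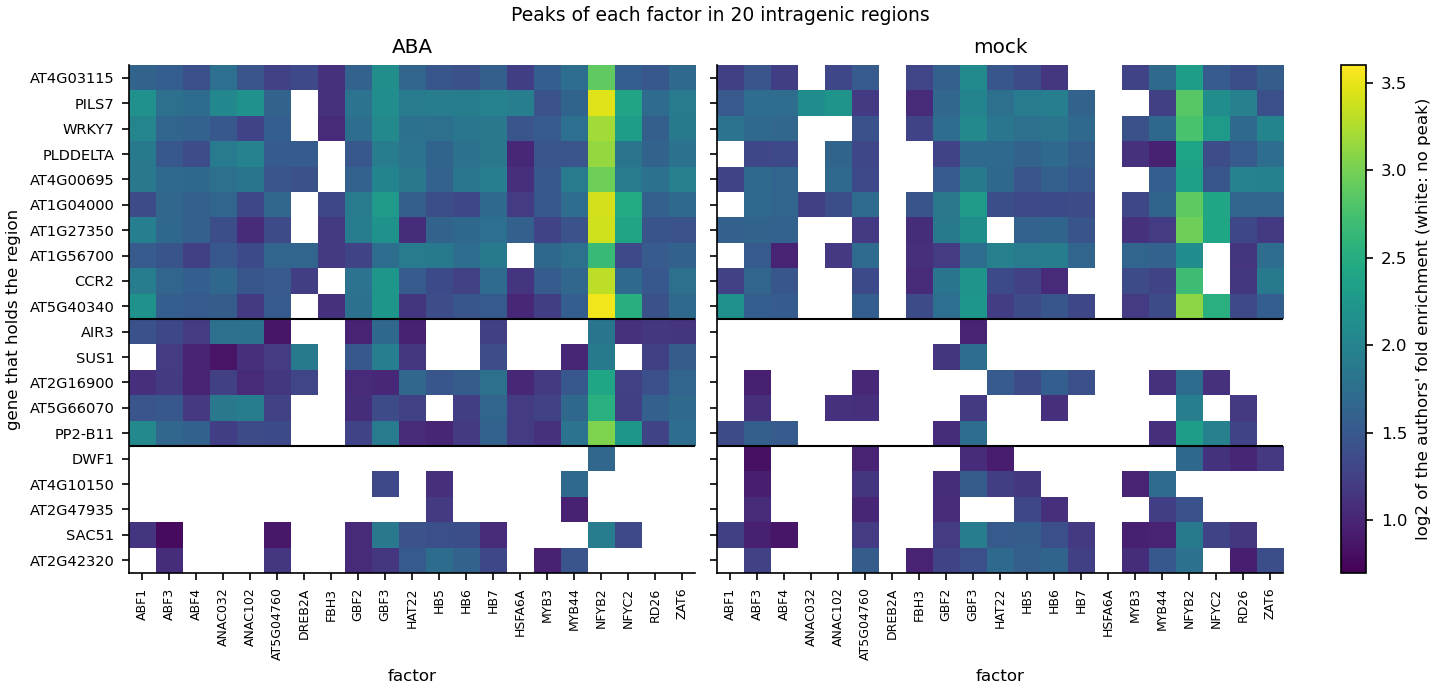
The log2 of the authors' fold enrichment for each factor (horizontal axis) in 20 intragenic regions named by their genes (vertical axis), with ABA on the left and mock on the right and white for no peak; black lines part the 10 regions with the most factors under ABA, the 5 with the largest gain and the 5 with the most negative change. The NFYB2 column is brightest in the upper 10 rows, and AIR3 and SUS1 have 14 filled cells each under ABA and 1 and 2 under mock.

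The strongest intragenic ABA peak of a factor ranked from 1 to 18 in its whole list and often lay in a gene shared by many factors. RD26 had the strongest peak of its whole ABA list in a member, in AT4G00695 (fold 3.46, and 3.95 under mock), where the strongest intragenic peak of ZAT6 also lay. Of 40 GBF3 peaks tied at the highest −log10 p of its ABA list, 141.89, 1 was in a member, in AT1G68470 (4.87, and 4.85 under mock), 981 bp from the nearer end. NFYB2 had its strongest intragenic peak in AT2G46170 (11.90 under ABA and 8.78 under mock), 27 bp from the end. MYB44 had it in NF-YB3, which encodes a relative of NFYB2 (3.97, and 3.98 under mock), ABF3 in LACS8, a long-chain acyl-CoA synthetase gene (3.56 and 3.48), GBF2 in MYB99 (4.25 and 4.13), ABF4 in AT3G51890, which encodes clathrin light chain 3 (3.38 and 3.45), and NFYC2 in PDCB5, a gene of a callose-binding protein of plasmodesmata (5.83 and 5.69). HSFA6A had it in AT5G35320 (3.98) with no HSFA6A peak under mock, and DREB2A in AT5G50150, where fold was 4.81 under ABA and 2.39 under mock. The remaining factors had theirs in AT5G40340 (ABF1), AT1G08230 (ANAC032), AT5G58100 (AT5G04760), AT3G12020 (FBH3), AT1G31710 (HAT22) and AT1G16350 (MYB3).

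Genes of ABA signalling held intragenic regions about as often as other genes. Of 23 genes of the core ABA pathway (receptors, clade A phosphatases, SnRK2 kinases and their targets), 22 had any summit inside and 4 held an intragenic region, near the 18.7% of all protein-coding genes. Over all protein-coding genes 46.6% had any summit inside. SNRK2.2, a kinase gene of the pathway (chr3:18743271-18744392), had 8 factors under ABA and 5 under mock, among them HB5, HB6, HB7 and HAT22 in both, with a median fold of 2.85 and 2.67. AHG1, a clade A phosphatase gene, had 3 factors under ABA and 2 under mock. The region given to SNRK2.3 had 1 factor, MYB44, under each treatment. Its 2 summits were placed in 2 genes, and SNRK2.3 was taken for its lower gene code. ABI4, an AP2 transcription factor gene, had GBF3 under ABA (fold 2.41) and no factor under mock. The genes that hold a member had a median of 2 factors under ABA at their fullest region, the same as the 4 genes of this list.

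Of 15 genes of ABA synthesis, breakdown and transport, 4 held an intragenic region (26.7%). ABCG25, which encodes an ABA exporter (chr1:27084738-27087227), had 13 factors under ABA and 9 under mock, spread over 1777 bp in the middle of the gene, with folds of 1.93, 2.14 and 5.74 under ABA and 1.90, 2.17 and 3.95 under mock. NCED6, which encodes an enzyme of ABA synthesis of the NCED family (chr3:8761618-8763112), had 10 factors under ABA and 9 under mock, all near the middle of a gene of 1885 bp, with folds of 1.84, 2.41 and 9.38 under ABA and 1.84, 2.61 and 7.43 under mock. With lists cut to equal length both had 2 factors fewer under ABA than under mock, so that no direction is given. NCED9, of the same enzyme family, had 3 factors under each treatment, and BG1, a glucosidase gene that frees ABA from its glucose ester, had 1.

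Of 17 dehydration and LEA genes 2 held a region (11.8%), where the share was 18.7% over all genes and 14.1% over the 20% class of gene length that holds their median of 1704 bp. The share was not tested. P5CS1, of proline synthesis, had GBF3 under ABA (fold 2.51) at 2211 bp from the nearer end and no factor under mock. COR15B, a cold-regulated chloroplast protein gene, had MYB44 and NFYC2 under ABA (2.01 and 2.49) and none under mock. Of 13 heat shock protein and chaperone genes 1 held a region (7.69%), HSP17.6II, with 2 factors under ABA and none under mock. None of the 21 genes of the tagged factors held one, although 16 had a summit inside.

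Genes of auxin transport and perception held members most often among the lists, 6 of 10, and all 10 had a summit inside. The list is small and its genes are long (median 3548 bp), and its share was not tested. The auxin efflux carrier genes PIN4 (chr2:182594-184152) and PIN7 (chr1:8178751-8182576) each had 17 factors under ABA, against 13 and 16 under mock. At PIN4 the fold was 2.14, 3.08 and 9.78 under ABA and 2.13, 3.09 and 6.63 under mock, and at PIN7 2.17, 2.98 and 5.53 under ABA and 2.10, 2.99 and 4.43 under mock. The summits at PIN4 lay within 173 bp of each other. The PIN7 region, at 3826 bp, was longer than the gene, at 3462 bp, and so reached past it. The influx carrier genes LAX2 and LAX3 had 10 and 3 factors under ABA, against 11 and 3 under mock. PIN2, another efflux carrier gene, had 2 under each treatment.

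Among 13 genes of photoreceptors and light signalling 3 held a region (23.1%). PHOT1, a blue-light receptor gene (chr3:16817108-16820470), had 17 factors under ABA and 15 under mock over 2471 bp, with a median fold of 2.44 and 2.45. PHOT2, of the same receptor family, had 10 under ABA and 6 under mock, and PIF3, a bHLH gene of phytochrome signalling, 9 and 3. With lists cut to equal length the differences were −3 factors at PHOT1, −1 at PHOT2 and 3 at PIF3. CESA1, a cellulose synthase gene of the primary wall (chr4:15646048-15647721), was the 1 of 10 cell wall genes with a member. This region was touched by 19 factors under ABA and 18 under mock, with NFYB2 at folds of 10.68 and 8.01, and its summits lay in 2 genes.

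The remaining lists lay near or below the share of all genes. Of 12 actin and tubulin genes 2 held a region. TUA4, an alpha-tubulin gene, had 11 factors under ABA and 7 under mock, the 7 being the 5 bZIP proteins and both NF-Y subunits. Its summits lay within 98 bp of each other, at a median of 91 bp from the gene end. TUB5 had 1 factor in each treatment. Of 14 MADS-box genes 2 did. The floral identity gene AG (chr4:10385440-10387399) had 10 factors under ABA and 8 under mock, with all summits within 54 bp of each other and 1794 to 1848 bp inside a gene of 5684 bp, and its difference was −1 with lists of equal length. FLC, the floral repressor, had GBF3 in both treatments (fold 2.34 and 1.88) at 2512 to 2514 bp from the nearer end. Of 11 ethylene and brassinosteroid genes 2 did, CTR1, a kinase gene of ethylene signalling, with 2 factors in each treatment, and BIN2, a kinase gene of brassinosteroid signalling, with 1 under ABA and 2 under mock.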

How the data were processed

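The deposited data were 42 peak lists, 1 per factor and treatment, with the replicates of a group pooled by the authors, as the peak names show. Bowtie 0.12.7, MACS2 2.0.10 and TAIR10 are named in the submitters' processing notes, which do not say which step each was used for. The fold enrichment of a peak is a ratio over control, as deposited by the authors. The −log10 p of a peak, as deposited, is at least 16 in the lists. Peaks were ranked and filtered within their own list, and folds of several lists, set side by side as a description, depend on each list. The summit offset, in bp, was used as deposited. The lists give no counts and no value per library, so the depth is unknown, and p-values measure the spread between factors, not between libraries. Factors bind many of the same regions and share families, so they are not independent. The labels do not say whether replicates were separate cultures.

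Peaks that overlapped by 1 bp or more were merged, and a region with any peak of a factor was counted for that factor. Coordinates are 1-based, from the peak lists. Protein-coding genes came from an NCBI table of TAIR10.1, without strand or exons. No coordinate of that table is printed. Summits shifted by 50 bp either way fell inside genes in 34.9% and 35.0% of cases, against 33.9% unshifted. A region was given to the gene with most of its summits, or at a tie to the gene with the lowest code. Summits of 422 members lay in more than 1 gene, and in 306 a summit lay in overlapping genes. All 159 gene list entries matched the table. As planned for the case that strand was not given, the share of summits in the 20% of the gene at either end was set against 40%, in place of a comparison of the 2 ends. No genome was used, so motifs and sequences were not analysed here.

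Tests were permutation tests that flip the signs of the factors' values at random (two-sided, 100000 resamples, exact for up to 16 values), adjusted by Benjamini-Hochberg over 7 tests. Factors with under 20 peaks, regions or summits on a side were left out of that test. Merging, membership, and the strength, width and mock-peak measures were tested on simulated peaks with known answers. The end-zone measures and the ABA minus mock share were not. The permutation test was tried on independent random values, whereas the factors are not independent. Python 3.11.15, numpy 2.4.6, pandas 2.3.3 and scipy 1.17.1 were used. Intervals of shares are 95% Wilson intervals. The alternatives were a summit rule per peak or for at least 50% of a region's summits, a merging overlap of 100 bp, a −log10 p of 32, lists of equal length, a distance of 100 bp from gene ends, and leaving out stretches near tagged genes, short lists, GBF3 and NFYB2, or each factor, and family means in place of factors. Genes of 2000 bp or longer, comparisons with only outside or only mixed regions, and an even spread without the outer 100 bp, were added after the data were seen.

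Genes were named by a rule: the 10 members with the most factors under ABA, the strongest intragenic ABA peak of each factor, the 5 genes with the most members, the 5 largest gains and 5 most negative changes in factors, and list genes, up to 4 per list with 10 or more factors, with other list genes that hold a member added by name (1 is not reported here). Members and lists were chosen with earlier results of these data known.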

Additional observations from a re-analysis of the deposited data

Results flagged for a closer look

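Within the 5 bZIP factors, GBF3 stood apart from ABF1, ABF3, ABF4 and GBF2 in 2 measures. Its share of intragenic regions under ABA was 22.8%, where the other bZIP factors had 11.1% to 14.2%. The excess of ABA regions without a mock peak, intragenic minus other regions, was 18.7 percentage points for GBF3 and 1.55 to 3.55 points for the others. In each case the gap between GBF3 and its nearest neighbour was most of the range of the 5 values. Of 16 such comparisons within families, chance alone flags about 1 in 20. Both measures depend in part on the rule. It favours regions with few peaks, and GBF3 alone touched 2193 regions, inside genes or not. ABF1, ABF3, ABF4 and GBF2 alone touched 25, 29, 2 and 6. The rule also favours regions without a mock peak, which bears on the second measure. The ABA list of GBF3 starts at a −log10 p of 17.98, and its part in either value was not tested.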

How the results depend on the processing

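With at least 50% of the summits inside, there were 8578 regions (median 4 factors) and 51 list genes with one, the ABA minus mock share was −0.79 points, and the excess of ABA regions without a mock peak was 1.37 points (permutation p = 0.0628). By each peak's own summit the share was −2.77 points, the ABA percentile difference −1.44 (permutation p = 0.199) and the excess −0.38 points. With summits 100 bp inside, there were 3517 regions in 3226 genes (median 1 factor). With equal list lengths the share was −0.49 points, and the factor difference was −1 at AT1G04000, AG and PHOT2, −2 at ABCG25 and NCED6, and −3 at PHOT1. At a −log10 p of 32 the mock percentile difference was −1.71 (permutation p = 0.0891). Against regions wholly outside genes, the percentile differences were −1.69 under ABA and −1.23 under mock, and the excess was 0.53 points. The share passed 0.05 without 50 kb around tagged genes (1.35 points) and with 500 peaks or more (1.09 points), and the end-zone difference did without GBF3 and NFYB2 (1.76 points). The causes were not tested. Leaving out 1 factor at a time, the share lay between 0.69 and 1.44 points and the end-zone difference between 1.03 and 1.61 points, passing 0.05 in 1 and in 2 of 21 cases. No other tested result changed its side. Between 4525 (without GBF3) and 5710 regions were intragenic. With the means of up to 10 families as units, the exact permutation p was 0.043 and 0.0234 for the ABA and mock percentile differences, 0.00391 for width and for the end-zone excess, and 0.383 for the share. No paired analysis was possible because the lists pool the replicates, where a pair means libraries with the same replicate number. The comparisons of ABA with mock, and of intragenic with other regions, were made within each factor. Width and the end-zone excess kept direction and side of 0.05 under each alternative run. The log2 width ratio was −0.50 in the main run and smaller under both other summit rules. It was −0.21 by each peak's own summit and −0.26 with at least 50% of the summits inside.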
